A study of Homo sapiens with 6 samples.

Results

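Kinesins are motor proteins that use ATP to walk along microtubules or to take their ends apart. The kinesin genes were taken from the raw count table as every symbol of the form KIF or KIFC followed by a number and at most 1 letter from A to C, with pseudogenes left out, plus the kinesin light chain genes KLC1, KLC2 and KLC4 and the kinesin-2 adaptor KIFAP3. This gave 46 of the 36458 symbols in the table. The cells were DMS114, a human small cell lung cancer line in long use. They received 2.5 mM β-alanine, a β-amino acid outside the set used in translation, for 48 h, or the same volume of vehicle (control), and polyadenylated RNA of 3 libraries per group was sequenced. Whether the libraries of a group are separate cultures is not stated, and the p-values therefore cover only the spread between these libraries, which may be technical.

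Mitotic kinesins build the spindle, move and align chromosomes and complete cytokinesis, and their transcripts accumulate late in the cell cycle. Axonal transport kinesins carry vesicles, mitochondria and other cargo towards microtubule plus ends and serve the long processes of neurons, although several of them work in every cell. Small cell lung cancer has neuroendocrine traits and divides fast, so its cells can use motors of both kinds. The 46 genes were divided by known role into 14 mitotic kinesins, 13 axonal transport genes (kinesin-1, KIF1 and kinesin-2 heavy chains, light chains and adaptor) and 19 other kinesins of endosomes, cilia, dendrites and microtubule dynamics.

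The deposited counts summed to between 14433801 and 32909568 per β-alanine library and between 18814876 and 22072654 per control library. β-alanine library 1 was the smallest and stood apart on the first principal component, at -9.14 against -23.5 and -23.6 for β-alanine libraries 2 and 3, with the controls between 16.7 and 20.02. Of the neuroendocrine and subtype markers, YAP1 averaged 129 CPM (counts scaled by TMM to a common library total) after β-alanine and 124 CPM in controls, and SYP averaged 86.3 and 61.0 CPM. INSM1 and POU2F3, which mark other forms of this cancer, averaged 0.164 and 0.180 CPM after β-alanine and 0.229 and 0.278 CPM in controls. The epithelial markers EPCAM and KRT18 averaged 1.05 and 11.9 CPM after β-alanine and 0.926 and 8.11 CPM in controls, and the 3 epithelial markers summed to 11.6 to 14.3 CPM after β-alanine against 8.64 to 9.57 CPM in controls. KRT18 rose (log2 change 0.58 ± 0.11, adjusted p = 0.000323 by edgeR's quasi-likelihood test) and EPCAM was not called. The fibroblast markers DCN, LUM and PDGFRB averaged 159, 53.4 and 28.0 CPM after β-alanine and 191, 57.1 and 24.6 CPM in controls. Of these, DCN fell and PDGFRB rose (log2 change 0.19 ± 0.07, adjusted p = 0.0482 by edgeR's quasi-likelihood test), and the summed level of all 5 fibroblast markers was 242 to 259 CPM after β-alanine against 276 to 289 CPM in controls. The immune markers found in the table (3) summed to at most 0.0899 CPM after β-alanine and 0.136 CPM in controls, and the 3 endothelial markers to at most 0.0696 and 0.0510 CPM. In RNA from whole cultures, fewer cells of a type and less RNA per cell cannot be told apart.

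The stretches just upstream of the start sites are shown for the 6 mitotic kinesins that passed the test and for 4 axonal transport genes, because the motif letters that were counted in each class lie there. Each runs from 140 bases before to 30 bases after the outermost annotated start, 5′ to 3′ on the gene's strand (RefSeq, GRCh38.p14). Capitals mark CCAAT, the letters bound by the factor NF-Y, and TTTGAA or TTTAAA, the letters of the cell cycle homology region (CHR) through which DREAM and B-MYB complexes act on late cell cycle genes, each on either strand (ATTGG and TTCAAA are the reverse complements).
KIF20B (chr10:89701450-89701619, plus strand): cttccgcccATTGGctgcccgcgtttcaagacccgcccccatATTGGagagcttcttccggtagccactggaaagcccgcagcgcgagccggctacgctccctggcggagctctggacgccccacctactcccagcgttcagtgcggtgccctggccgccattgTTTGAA
KIF15 (chr3:44761654-44761823, plus strand): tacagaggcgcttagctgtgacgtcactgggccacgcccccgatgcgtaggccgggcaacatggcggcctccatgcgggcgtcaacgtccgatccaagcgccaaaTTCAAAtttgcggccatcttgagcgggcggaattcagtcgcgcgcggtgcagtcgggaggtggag
KIF11 (chr10:92592990-92593159, plus strand): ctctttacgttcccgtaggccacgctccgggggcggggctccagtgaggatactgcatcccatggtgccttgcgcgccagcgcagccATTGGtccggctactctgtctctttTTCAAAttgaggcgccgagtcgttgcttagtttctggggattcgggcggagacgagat
KIF18B (chr17:44947744-44947913, minus strand): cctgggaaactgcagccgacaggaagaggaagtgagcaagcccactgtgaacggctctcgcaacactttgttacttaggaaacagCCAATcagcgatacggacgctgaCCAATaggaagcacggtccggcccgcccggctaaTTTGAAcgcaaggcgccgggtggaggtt
KIF2C (chr1:44739697-44739866, plus strand): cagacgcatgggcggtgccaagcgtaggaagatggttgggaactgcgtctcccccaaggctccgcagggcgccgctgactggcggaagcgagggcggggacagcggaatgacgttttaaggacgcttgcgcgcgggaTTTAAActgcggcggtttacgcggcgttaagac
KIF20A (chr5:138178972-138179141, plus strand): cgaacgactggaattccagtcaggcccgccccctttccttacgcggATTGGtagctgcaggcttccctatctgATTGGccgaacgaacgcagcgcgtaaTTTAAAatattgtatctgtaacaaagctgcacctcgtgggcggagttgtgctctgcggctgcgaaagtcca
KIF1A (chr2:240821374-240821543, minus strand): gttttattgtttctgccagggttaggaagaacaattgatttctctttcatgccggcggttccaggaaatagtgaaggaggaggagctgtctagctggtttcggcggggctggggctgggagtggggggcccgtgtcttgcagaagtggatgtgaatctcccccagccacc
KIF3A (chr5:132737517-132737686, minus strand): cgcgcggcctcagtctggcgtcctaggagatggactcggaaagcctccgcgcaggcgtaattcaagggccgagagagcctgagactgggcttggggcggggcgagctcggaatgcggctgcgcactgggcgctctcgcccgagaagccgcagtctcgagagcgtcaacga
KIF5B (chr10:32056396-32056565, minus strand): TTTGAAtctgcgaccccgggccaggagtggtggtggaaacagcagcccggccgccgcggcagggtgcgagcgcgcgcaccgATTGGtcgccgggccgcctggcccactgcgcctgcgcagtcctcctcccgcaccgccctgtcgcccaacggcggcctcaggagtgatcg
KIF3C (chr2:25982468-25982637, minus strand): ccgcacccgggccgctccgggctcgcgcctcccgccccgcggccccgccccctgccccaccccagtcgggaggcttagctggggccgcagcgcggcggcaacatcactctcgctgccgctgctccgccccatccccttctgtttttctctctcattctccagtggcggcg

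Both motifs were common in the mitotic class. Over 250 bases before to 50 after any annotated start, 11 of 14 mitotic kinesins held CCAAT and 12 of 14 held a CHR sequence, and 10 held both, which is 71.4% against 11.2% of the 27305 genes with a promoter in the table. Of the 10 axonal transport genes with a promoter there, 4 held CCAAT and 1 held both, and of the 12 other kinesins 3 held CCAAT and 0 held both. Over all 27305 genes, 39.7% held CCAAT and 27.9% a CHR sequence. The CHR letters were in all 4 mitotic kinesins that fell and in both that rose, and CCAAT was in 3 of the 4 and in 1 of the 2, with KIF15 and KIF2C lacking it. Of the 6 tested mitotic kinesins that were not called, 5 held the CHR letters and 6 held CCAAT. The motifs thus did not set the called genes apart. A match of letters is a description of the sequence and not a bound site, and no CCAAT match in these kinesin promoters overlaps a CHR match. The promoter table matched 36 of the 46 genes. KIF5A, KIF13B, KIF19, KIF21B, KIF26B, KIF27, KIFC2, KIFC3, KLC2 and KLC4 were not among them.

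Of the 46 genes, 44 had enough counts to be tested. KIF2B, a mitotic depolymerase, had 0 counts in every library. KIF4B, an intronless copy of KIF4A, was counted 2, 4 and 0 times after β-alanine and 0, 1 and 2 times in controls, and its reads cannot be told safely from those of KIF4A. Levels were compared between genes per kilobase of annotated exon. KIF5B, the kinesin-1 heavy chain of most tissues, was the most abundant, at 91.4 ± 0.769 CPM per kb after β-alanine and 85.7 ± 1.47 CPM per kb in controls (SD, 3 libraries each). KIF2C (MCAK), a depolymerase of kinetochores and centromeres, led the mitotic kinesins at 48.3 ± 1.78 and 42.3 ± 0.962 CPM per kb, followed by KIF11 (Eg5), which pushes spindle poles apart, at 31.2 ± 3.09 and 37.0 ± 0.658 CPM per kb. KIF1A, the carrier of synaptic vesicle precursors and dense-core vesicles in neurons, stood at 32.3 ± 0.623 and 28.6 ± 0.545 CPM per kb. The most abundant of the other kinesins were KIF2A, a depolymerase of neurons and spindles, at 23.9 and 24.0 CPM per kb, and KIF13A, a motor of recycling endosomes, at 7.65 and 8.42 CPM per kb, with KIF7 at 7.80 and 7.73 CPM per kb, above KIF13A after β-alanine and below it in controls. Exon length was the union of all annotated exons, which lowers the value of genes with many rarely used exons.

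**Figure D1:**
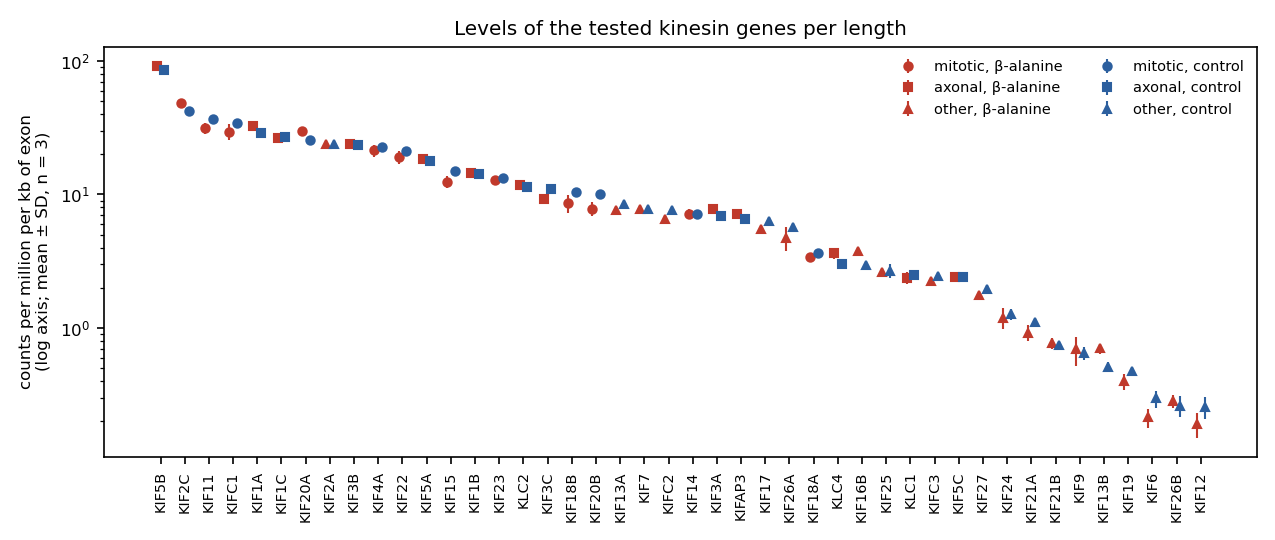
Level of each of the 44 tested kinesin genes in CPM per kb of exon on a log axis, with the mean and SD of 3 β-alanine libraries (red) left of 3 control libraries (blue). KIF5B lies highest, at 91.4 and 85.7 CPM per kb, and mitotic and axonal transport genes share the upper part of the range.

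Kinesin transcripts moved in both directions after β-alanine. With edgeR's quasi-likelihood test and Benjamini-Hochberg adjustment over the 17331 genes tested (threshold 0.05), 8 of the 44 rose and 10 fell. These 18 are 40.9% of the members, against 27.9% of all genes called in either direction (14.1% rose and 13.8% fell). The changes were small, with log2 fold changes between -0.48 and 0.48 and a median of -0.06, beside a median of 0.00 over all genes. The count that fell was 17 without β-alanine library 1, 4 and 6 without β-alanine libraries 2 and 3, and 5 without control library 2, and 5 rose without β-alanine library 3. The share of all genes called moved as well. Without β-alanine libraries 1, 2 and 3 it was 18.3, 8.44 and 9.4% for genes that fell and 17.8, 8.6 and 9.46% for genes that rose, and without control libraries 1, 2 and 3 it was 10.2, 8.49 and 10.9% for falls and 10.5, 8.96 and 10.4% for rises. Library values did not overlap between the groups for 8 kinesins that were higher after β-alanine and 12 that were lower, beside 19.9% and 19.2% of all genes (39.1% in either direction). Of the 18, 12 share no annotated exon with another gene.

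**Figure D2:**
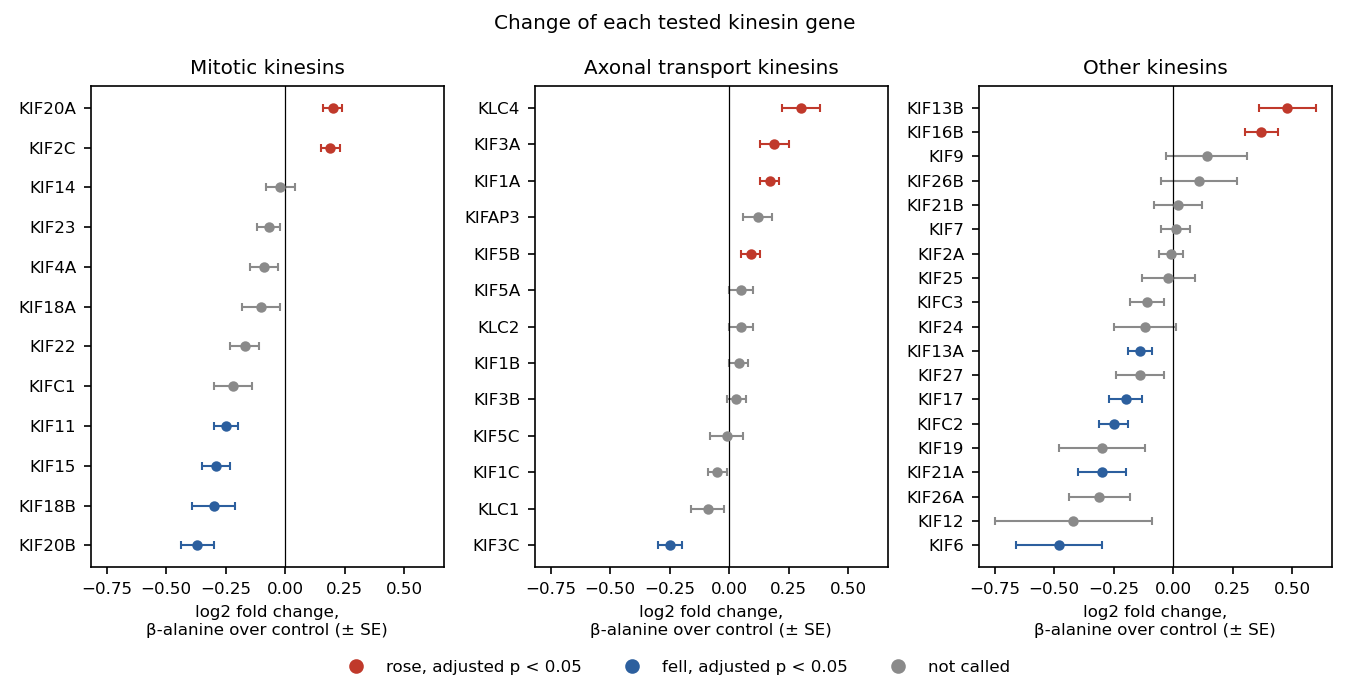
Log2 fold change of β-alanine over control for each tested gene, with its standard error, by class. Red genes rose and blue genes fell at an adjusted p under 0.05. The mitotic class runs from -0.37 for KIF20B to 0.20 for KIF20A, and the axonal transport class from -0.25 for KIF3C to 0.30 for KLC4.

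Among mitotic kinesins, 4 of 12 tested fell and 2 rose, and the median log2 change was -0.14. The genes that fell were KIF20B, KIF15, KIF11 and KIF18B, and those that rose were KIF20A and KIF2C. KIF11, KIF15 and KIF18B act on the microtubules of the forming spindle, KIF20A and KIF20B on its midzone and on cytokinesis. As shares of the 12, 33.3% fell and 16.7% rose, beside 13.8% and 14.1% of all genes. A wider mitotic class also took in KIF2A, KIF24 and KIF25. Of its 15 tested genes 4 fell and 2 rose (26.7% and 13.3%), with a median log2 change of -0.10.

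KIF20B (chr10:89701590-89774934), needed for the last steps of cytokinesis, had 60.8, 48.4 and 51.8 CPM in β-alanine libraries 1, 2 and 3, against 68.5, 66.8 and 71.1 CPM in control libraries 1, 2 and 3. The groups did not overlap, with β-alanine library 1 nearest to the controls. Its log2 fold change was -0.37 ± 0.07 (SE; adjusted p = 0.000359 by edgeR's quasi-likelihood test). KIF15 (chr3:44761794-44868687), which can stand in for KIF11 in keeping spindle poles apart, had 73.0, 62.0 and 62.2 CPM after β-alanine, against 78.3, 81.7 and 79.1 CPM in controls. Again no β-alanine library reached a control. The change was -0.29 ± 0.06 (adjusted p = 0.000561 by edgeR's quasi-likelihood test).

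KIF11 (chr10:92593130-92655395), the target of Eg5 inhibitors, had 169, 144 and 142 CPM after β-alanine, against 177, 179 and 183 CPM in controls. All 3 β-alanine libraries were lower, library 1 by the least. The log2 fold change was -0.25 ± 0.05 (adjusted p = 0.00207 by edgeR's quasi-likelihood test). KIF18B (chr17:44924711-44947773), which shortens astral microtubules together with KIF2C, had 47.2, 35.3 and 37.3 CPM after β-alanine, against 50.6, 48.8 and 45.8 CPM in controls. Here the groups overlapped, since β-alanine library 1 lay above control library 3. The change was -0.30 ± 0.09 (adjusted p = 0.0245 by edgeR's quasi-likelihood test), and the call was lost in the fits that left out β-alanine library 2, β-alanine library 3, control library 1 and control library 2 (adjusted p between 0.0862 and 0.106).

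KIF20A (chr5:138179112-138187723), which brings the chromosomal passenger complex to the spindle midzone, had 120.2, 116 and 116 CPM after β-alanine, against 104, 101 and 101 CPM in controls. Every β-alanine library was above every control, and library 1 did not lie nearer to the controls. Its log2 fold change was 0.20 ± 0.04 (adjusted p = 0.000993 by edgeR's quasi-likelihood test). KIF2C (chr1:44739837-44767767) had 169, 181 and 178 CPM after β-alanine, against 154, 157 and 150.4 CPM in controls. The groups were again separate, and the change was 0.19 ± 0.04 (adjusted p = 0.00119 by edgeR's quasi-likelihood test). KIF20A shares 132 exonic bases with BRD8 and 68 with CDC23 on the opposite strand, and KIF2C shares 175 with AL592166.1, so some of their reads may belong to those genes, as strand use in counting was not stated.

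The other 6 tested mitotic kinesins did not pass the test. KIFC1 (HSET), a minus-end motor that focuses spindle poles, had 114, 92.5 and 90.2 CPM after β-alanine, against 109, 116 and 117 CPM in controls (adjusted p = 0.0609 by edgeR's quasi-likelihood test). KIF22, a chromokinesin, had 92.7, 75.0 and 78.0 CPM after β-alanine, against 88.5, 93.6 and 92.2 CPM in controls (adjusted p = 0.0527). In both genes β-alanine library 1 lay among the controls and libraries 2 and 3 below them. Both passed with limma-voom (adjusted p = 0.00874 for KIFC1 and 0.0269 for KIF22) and with no low-count filter (8.06e-05 and 0.0078), and KIFC1 also with DESeq2 (0.0168). KIF4A, a chromokinesin of the midzone, KIF23, a subunit of centralspindlin, KIF18A, which aligns chromosomes, and KIF14, a partner of citron kinase, had log2 fold changes of -0.09, -0.07, -0.10 and -0.02. KIF4A had 108, 89.9 and 92.8 CPM after β-alanine, against 104, 102 and 102 CPM in controls. KIF23 had 91.8, 80.6 and 79.1 CPM after β-alanine, against 87.5, 89.1 and 85.0 CPM in controls. In both, library 1 was above all controls and the other β-alanine libraries below them. KIF14 had 57.0, 49.8 and 48.7 CPM after β-alanine, against 48.9, 51.3 and 55.9 CPM in controls, with wide overlap. The 95% interval for KIF14 ran from -0.15 to 0.11, and that for KIF18A from -0.27 to 0.07.

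β-alanine library 1 differed from the other β-alanine libraries across this class. Its CPM was above that of both libraries 2 and 3 for 11 of 12 mitotic kinesins, with KIF2C the exception, against 38.4% of all tested genes. Libraries 2 and 3 both lay below all 3 controls for 9 of the 12. The share of all genes with that pattern was not computed, so how unusual the 9 are is not known. The mean log2 level of the class relative to controls was 0.02, -0.19 and -0.18 in β-alanine libraries 1, 2 and 3, against -0.02, 0.01 and 0.01 in control libraries 1, 2 and 3. Without β-alanine library 1, 8 mitotic kinesins fell, with KIFC1, KIF22, KIF4A and KIF23 added, and KIF20A and KIF2C rose as before. As shares in that fit, 66.7% fell and 16.7% rose, against 18.3% and 17.8% of all genes.

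**Figure D3:**
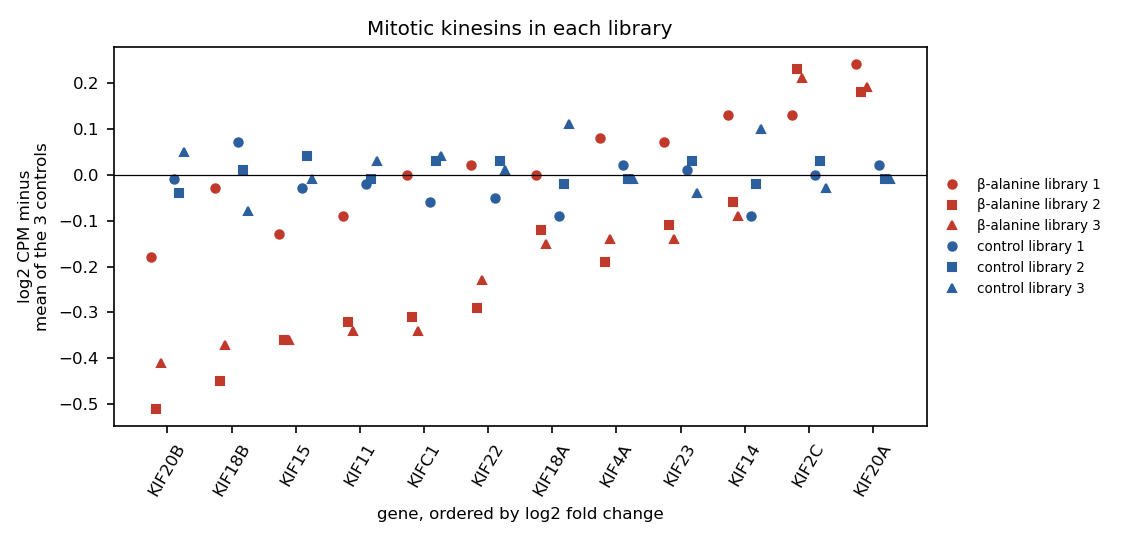
Log2 CPM of each tested mitotic kinesin in each library minus the mean of the 3 controls, with β-alanine libraries in red left of control libraries in blue. In the genes that fell, β-alanine library 1 (red circles) lies nearer to the controls than libraries 2 and 3, while KIF2C and KIF20A lie above 0 in all 3 β-alanine libraries.

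The partners of the mitotic kinesins were called in 1 direction. Of 20 spindle partners, 8 fell and 0 rose, with a median log2 change of -0.16. This is 40% that fell, against 13.8% of all genes. CIT, the citron kinase of the midbody, had 60.5, 52.0 and 50.9 CPM after β-alanine, against 70.5, 72.7 and 71.3 CPM in controls, a change of -0.41 ± 0.06 (adjusted p = 1.96e-05 by edgeR's quasi-likelihood test). The mitotic kinase PLK1 changed by -0.32 ± 0.06, the spindle pole protein NUMA1 by -0.25 ± 0.05 and AURKB, the kinase of the chromosomal passenger complex that KIF20A moves, by -0.28 ± 0.06. AURKA, ECT2 and HMMR were not called, with log2 changes of 0.05, 0.06 and 0.03. The count was 5 without β-alanine library 2 or 3 and 13 without library 1. Of 8 proliferation markers, 7 fell and 0 rose, and 4 fell in each of the fits without β-alanine library 2, β-alanine library 3, control library 1 and control library 2. Their summed level was 2060, 1862 and 1852 CPM in β-alanine libraries 1, 2 and 3, against 2246, 2211 and 2212 CPM in controls. Their part in the change of the mitotic kinesins was not tested.

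As divided here, the axonal transport genes had more calls upward than downward. Of 13 tested, 4 rose (KIF1A, KLC4, KIF3A and KIF5B) and KIF3C alone fell, with a median log2 change of 0.05. As shares, 30.8% rose and 7.69% fell, beside 14.1% and 13.8% of all genes. KIF1A moves vesicles in neurons, KIF5B is a kinesin-1 heavy chain, KLC4 a kinesin-1 light chain, and KIF3A and KIF3C are kinesin-2 heavy chains. The count that rose was 2 when β-alanine library 2, control library 1 or control library 2 was left out, and 1 without β-alanine library 3. The count that fell was 3 without β-alanine library 1, with KIF1C and KLC1 added. A wider class of 21 genes also took in KIF2A, KIF13A, KIF13B, KIF16B, KIF17, KIF21A, KIF21B and KIFC2. In it 6 rose and 5 fell (28.6% and 23.8%), with a median log2 change of 0.03. The excess of rises over falls therefore depends on where the class is drawn. The share that rose was similar in both classes, and the share that fell was larger in the wider class.

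KIF1A (chr2:240713767-240821403) had 549.9, 529 and 537 CPM in β-alanine libraries 1, 2 and 3, against 469.5, 476 and 488 CPM in control libraries 1, 2 and 3. The groups were fully separate, with β-alanine library 1 the highest. Its log2 fold change was 0.17 ± 0.04 (SE; adjusted p = 0.000932 by edgeR's quasi-likelihood test). The related KIF1B, which carries mitochondria and vesicles, and KIF1C, a motor of many tissues, changed by 0.04 ± 0.04 and -0.05 ± 0.04 and were not called. KIF1B had 256, 262 and 257 CPM after β-alanine, against 251, 248 and 257 CPM in controls, and KIF1C 239, 219 and 219 CPM after β-alanine, against 229, 242 and 227 CPM in controls. Among these 3 genes, KIF1A made up 44.1 ± 0.392% of the level per length after β-alanine and 40.9 ± 0.666% in controls (SD, 3 libraries each).

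KIF5B (chr10:32009015-32056425) had 542, 537 and 533 CPM after β-alanine, against 498, 498 and 513 CPM in controls. The separation was complete but narrow, and the log2 fold change was 0.09 ± 0.04 (adjusted p = 0.0492 by edgeR's quasi-likelihood test). This call was lost in 9 of 13 alternatives, each time with an adjusted p between 0.0523 and 0.176, among them 5 of the 6 fits that left out a library (all but the fit without β-alanine library 1). The neuronal heavy chains KIF5A and KIF5C changed by 0.05 (95% interval -0.05 to 0.14) and -0.01 (-0.16 to 0.14). KIF5A had 109.6, 114 and 122 CPM after β-alanine, against 109, 114 and 113 CPM in controls, so the groups overlapped. KIF5B made up 81.5 ± 0.781% of the 3 heavy chains per length after β-alanine and 80.9 ± 0.452% in controls, KIF5A 16.4 ± 0.836% and 16.9 ± 0.348%, and KIF5C 2.13 ± 0.0574% and 2.27 ± 0.105%.

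KLC4 (chr6:43059631-43075093), a light chain that links kinesin-1 to cargo, had 21.2, 23.5 and 25.6 CPM after β-alanine, against 19.1, 20.01 and 18.6 CPM in controls. All β-alanine libraries were higher, and the log2 fold change was 0.30 ± 0.08 (adjusted p = 0.00621 by edgeR's quasi-likelihood test, and 0.0768 without β-alanine library 3). KLC4 shares 373 exonic bases with MRPL2, 329 with CUL7 and 118 with AL355385.1 on the opposite strand. KLC2 and KLC1 changed by 0.05 ± 0.05 and -0.09 ± 0.07 and were not called. KLC1 is the least certain of the light chains, since 5756 of its exonic bases are shared with XRCC3 on the opposite strand. It also shares 1989 with AL139300.1 on the same strand.

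The kinesin-2 genes parted. KIF3A (chr5:132688812-132737546), the subunit common to the heterotrimeric motor, had 50.5, 55.0 and 54.3 CPM after β-alanine, against 45.3, 46.0 and 49.6 CPM in controls. Each β-alanine library was above each control, library 1 by less than 1 CPM over control library 3. Its log2 fold change was 0.19 ± 0.06 (adjusted p = 0.0134 by edgeR's quasi-likelihood test), and the call was lost in the same 4 fits as that of KIF18B (adjusted p between 0.0632 and 0.081). KIF3C (chr2:25926598-25982497), a kinesin-2 heavy chain enriched in neurons, had 61.9, 60.3 and 56.4 CPM after β-alanine, against 71.9, 71.8 and 68.4 CPM in controls. Every β-alanine library was lower, and the change was -0.25 ± 0.05 (adjusted p = 0.00069 by edgeR's quasi-likelihood test). KIF3B, the usual partner of KIF3A, changed by 0.03 ± 0.04 and the adaptor KIFAP3 by 0.12 ± 0.06, and neither was called. KIFAP3 had 32.9, 36.4 and 36.6 CPM after β-alanine, against 31.8, 31.4 and 34.9 CPM in controls, where only library 1 lay within the control range. KIF3A made up 19.0 ± 0.333% of the 3 heavy chains per length after β-alanine and 16.6 ± 0.710% in controls, and KIF3C 22.8 ± 1.57% and 26.8 ± 0.964% (SD, 3 libraries each).

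**Figure D4:**
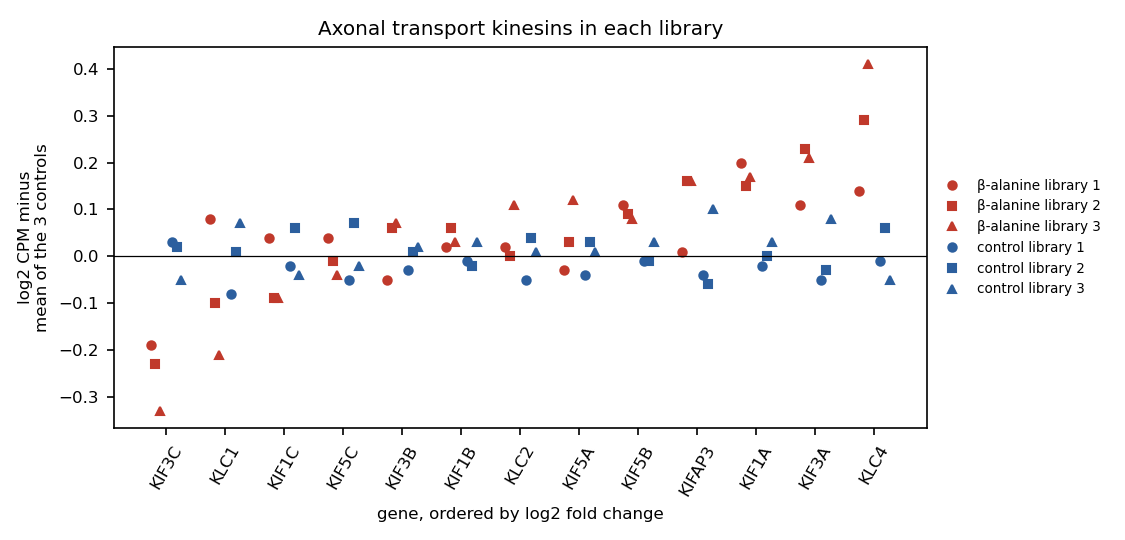
Log2 CPM of each axonal transport gene in each library minus the mean of the 3 controls, with β-alanine libraries in red left of control libraries in blue. KIF3C lies below the controls and KIF5B, KIF1A, KIF3A and KLC4 above them in all 3 β-alanine libraries.

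Set against each other, the median log2 change was -0.14 for mitotic kinesins and 0.05 for axonal transport genes, a difference of -0.18. The gap was seen in β-alanine libraries 2 and 3 and was near 0 in library 1. The mean of the mitotic class minus that of the axonal transport class, both relative to controls, was -0.02, -0.24 and -0.24 in β-alanine libraries 1, 2 and 3, against 0.01, -0.01 and 0.00 in the control libraries. The axonal transport mean alone was 0.04, 0.05 and 0.05 in β-alanine libraries 1, 2 and 3, against -0.03, 0.01 and 0.02 in controls. With the wider mitotic and axonal transport classes, the medians were -0.10 and 0.03. Members of a class are not replicates, so the difference between the classes has no test.

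Pairs of genes counted in the same library give ratios that do not depend on scaling. They were chosen after the values were seen and are given with no test. KIF20A over KIF20B was 1.98, 2.39 and 2.24 in β-alanine libraries 1, 2 and 3, against 1.51, 1.51 and 1.42 in control libraries 1, 2 and 3. KIF2C over KIF11 was 0.996, 1.25 and 1.26 after β-alanine, against 0.871, 0.878 and 0.820 in controls. KIF3A over KIF3C was 0.817, 0.913 and 0.964 after β-alanine, against 0.629, 0.641 and 0.726 in controls. In these 3 ratios all β-alanine libraries, library 1 included, lay above all controls. The choice of pairs fixed this, since each numerator gene was higher and each denominator gene lower in every β-alanine library than in every control. KIF1A over KIF1B averaged 2.09 ± 0.0647 in β-alanine libraries and 1.89 ± 0.0235 in control libraries (SD, 3 libraries each), also without overlap, while KIF5A over KIF5B overlapped, at 0.214 ± 0.0130 and 0.222 ± 0.00584.

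**Figure D5:**
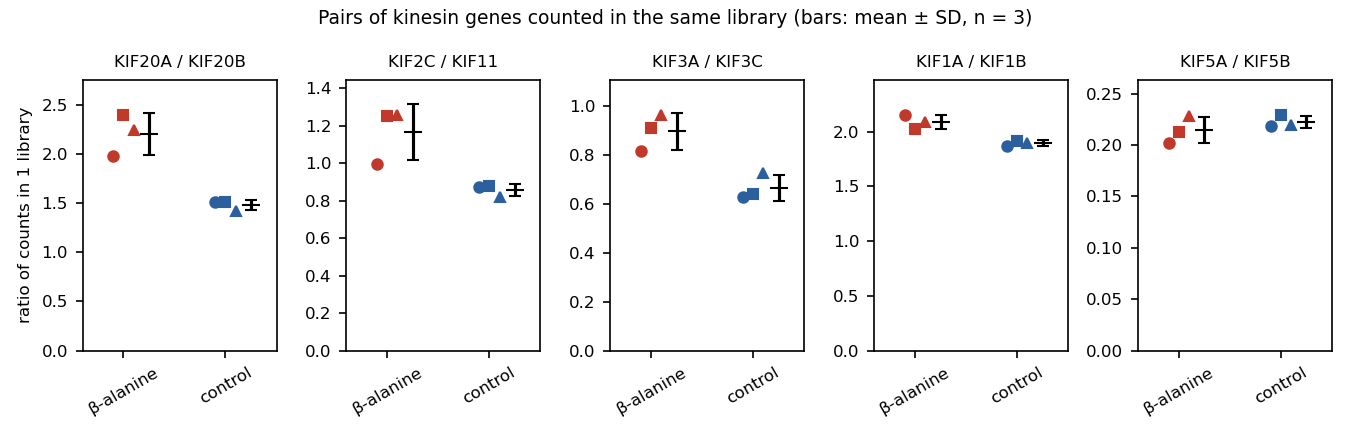
Ratio of the counts of 2 kinesin genes in the same library, for 5 pairs, with 3 β-alanine libraries (red) left of 3 control libraries (blue) and bars for mean and SD. KIF20A over KIF20B lies between 1.98 and 2.39 after β-alanine and between 1.42 and 1.51 in controls, and KIF5A over KIF5B overlaps between the groups.

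KIF13B and KIF16B, both outside the mitotic and axonal transport classes, had the largest positive log2 changes of the 44 genes. Of 19 other kinesins tested, these 2 rose and 5 fell (KIFC2, KIF13A, KIF17, KIF21A and KIF6), with a median log2 change of -0.12. In shares, 10.5% rose and 26.3% fell, beside 14.1% and 13.8% of all genes. The count that fell was 0 and 2 without β-alanine libraries 2 and 3, and 3, 1 and 3 without control libraries 1, 2 and 3. KIF16B (chr20:16272104-16573448), which binds the lipids of early endosomes and moves them outward, had 28.3, 29.9 and 29.7 CPM after β-alanine, against 22.4, 22.7 and 23.1 CPM in controls. The 2 groups were far apart relative to their spread, and the change was 0.37 ± 0.07 (adjusted p = 0.000221 by edgeR's quasi-likelihood test). KIF13B (chr8:29067278-29263388), a kinesin-3 motor also called GAKIN, had 7.03, 8.24 and 8.15 CPM after β-alanine, against 6.11, 5.73 and 5.20 CPM in controls. Its rise of 0.48 ± 0.12 (adjusted p = 0.00434 by edgeR's quasi-likelihood test) was held by all 3 libraries, and its exons share 585 and 279 bases with AC108449.3 and AC108449.1 on the opposite strand.

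KIFC2, a motor of the minus-end family found in mouse neurons, had 31.2, 27.3 and 28.1 CPM after β-alanine, against 34.9, 33.5 and 33.6 CPM in controls. The groups were separate, with a log2 fold change of -0.25 ± 0.06 (adjusted p = 0.00668 by edgeR's quasi-likelihood test, and 0.0595 without β-alanine library 2), although 791 of its exonic bases are shared with FOXH1 on the opposite strand. KIF17, a dendritic motor in mouse neurons, had 25.3, 24.2 and 24.9 CPM after β-alanine, against 27.5, 30.3 and 27.4 CPM in controls. KIF13A had 87.0, 82.8 and 85.7 CPM after β-alanine, against 89.4, 96.1 and 95.6 CPM in controls. Both were lower in every β-alanine library, with log2 fold changes of -0.20 ± 0.07 and -0.14 ± 0.05 (adjusted p = 0.0282 and 0.0255 by edgeR's quasi-likelihood test). KIF21A, which restrains microtubule growth at the cell cortex, had 10.6, 9.30 and 8.09 CPM after β-alanine, against 10.98, 11.5 and 11.3 CPM in controls. KIF6 had 2.65, 2.08 and 2.88 CPM after β-alanine, against 3.35, 4.09 and 3.11 CPM in controls, the lowest level among the kinesins called. Their log2 changes were -0.30 ± 0.10 and -0.48 ± 0.18 (adjusted p = 0.0349 and 0.0462 by edgeR's quasi-likelihood test). The calls of KIF17, KIF13A, KIF21A and KIF6 were each lost in 4 to 6 of 13 alternatives, with adjusted p up to 0.246.

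KIF2A, the most abundant of the other kinesins, had 113, 118 and 111 CPM after β-alanine, against 119, 108 and 117 CPM in controls, and its 95% interval for the log2 change ran from -0.10 to 0.09. KIF7, the kinesin of Hedgehog signalling at the tip of the cilium, had 40.0, 37.6 and 39.5 CPM after β-alanine, against 37.2, 41.1 and 37.7 CPM in controls (interval -0.11 to 0.13). KIF26A had 39.5, 28.1 and 28.2 CPM after β-alanine, against 37.4, 41.8 and 36.7 CPM in controls, so that β-alanine library 1 lay among the controls here as well (adjusted p = 0.126 by edgeR's quasi-likelihood test, and 6.46e-08 without that library). It passed with limma-voom (0.0087) and with no low-count filter (8.98e-05). The remaining 9 were KIF9, KIF12, KIF19, KIF21B, KIF24, KIF25, KIF26B, KIF27 and KIFC3. They averaged between 0.574 and 21.6 CPM after β-alanine, and their log2 changes, from -0.42 for KIF12 to 0.14 for KIF9, were not called. KIF9 and KIF25 share 870 and 207 exonic bases with their antisense genes, so their counts are uncertain.

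Some partners of the transport motors passed the test. Of 24 tested adaptors and regulators of kinesin-1 and kinesin-3, 1 rose and 2 fell, which is 12.5% against 27.9% of all genes, with a median log2 change of -0.05. Without β-alanine library 1, 5 fell and the share called was 25% (4.17% rose and 20.8% fell). In that fit 17.8% of all genes rose and 18.3% fell. TRAK1, which ties mitochondria to kinesin-1, had 66.5, 63.1 and 63.4 CPM after β-alanine, against 81.5, 75.7 and 77.0 CPM in controls, without overlap. Its change was -0.28 ± 0.05 (adjusted p = 0.000167 by edgeR's quasi-likelihood test). CRMP1, a phosphoprotein of growing axons, changed by -0.19 ± 0.05. KIFBP, which binds and blocks several kinesin motor domains, averaged 67.5 CPM after β-alanine and 72.3 CPM in controls and was not called (adjusted p = 0.121 by edgeR's quasi-likelihood test).

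Dynein, which walks towards minus ends, changed within the complex in both directions. Of 25 genes of cytoplasmic dynein, dynactin and their regulators, 7 rose and 5 fell, with a median log2 change of 0.07. As a share this is 48% against 27.9% of all genes. DYNLT3, a light chain, rose by 0.35 ± 0.06, while the light chain DYNLL2 changed by -0.22 ± 0.04, the intermediate chain DYNC1I2 by -0.30 ± 0.05 and the dynactin subunit ACTR10 by -0.25 ± 0.05 (adjusted p between 0.000269 and 0.00087 by edgeR's quasi-likelihood test). DYNC1H1, the heavy chain, averaged 829.7 ± 31.6 CPM after β-alanine and 821 ± 27.3 CPM in controls and was not called. DYNC1I1, a neuronal intermediate chain, was also called, at 58 counts over the β-alanine libraries and 23 over the controls (adjusted p = 0.0491 by edgeR's quasi-likelihood test), but not without control library 1, 2 or 3 (0.0658, 0.221 and 0.105), with limma-voom (0.0536) or with no low-count filter (0.0766). The count that rose was 3 after leaving out control library 1, and 4 after leaving out control library 2 or either of β-alanine libraries 2 and 3. Without control library 1 this was 12% against 10.5% of all genes, and without control library 2 it was 16% against 8.96%. Without β-alanine libraries 2 and 3 it was 16.7% each time, against 8.6 and 9.46% of all genes.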

How the data were processed

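Polyadenylated RNA of DMS114 cells was measured in 3 β-alanine and 3 control libraries, grouped by sample title. The values are raw counts by symbol, as the authors deposited them. The submitters' processing notes name build GRCh38 and, in addition to bcl2fastq and DESeq2, featureCounts 2.0.1, STAR 2.7.3a and Trimmomatic 0.39. Parameters, gene annotation and strandedness were not given in the sources used here, and where genes share bases on opposite strands their reads may be mixed.

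The whole table was filtered with filterByExpr (17331 genes kept), scaled by TMM and tested with edgeR 4.0.16's quasi-likelihood test (R 4.3.3, robust, all 6 libraries, no covariate, two-sided, Benjamini-Hochberg over all genes, threshold 0.05). CPM uses TMM-scaled totals, and class means use log2 CPM with a prior count of 2. Standard errors were derived from the F statistic. Exon lengths and overlaps came from GENCODE release 29, positions and promoters from RefSeq on GRCh38.p14. The code was tested on simulated data.

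Members, classes and lists were chosen with earlier results of these data known. Named were all called members, the 2 most abundant per length in each class, and up to 4 called genes with the smallest p per partner list. KIFC1, KIF22, KIF26A, KIF7 and other uncalled members were named for completeness, and AURKA, ECT2, HMMR, KIFBP and DYNC1H1 after their values were seen. Alternatives were a replicate block, limma-voom (limma 3.58.1), the Wald test of DESeq2 1.42.0, its size factors, scaling by library totals, 2 other filters, other class lists and leaving out each library. With 3 libraries per group, counts below 10 per gene give little precision. Single values of 2 genes of the marker and partner lists are not reported here.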

Additional observations from a re-analysis of the deposited data

How the results depend on the processing

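Of the 18 kinesin calls, 9 were kept in all 13 alternatives (KIF20A, KIF2C, KIF20B, KIF15, KIF11, KIF1A, KIF3C, KIF16B and KIF13B). The other 9 were lost in at least 1, with the same direction throughout. KIF2A, which was not called, changed sign with library totals (log2 change 0.01), without β-alanine library 3 (0.01), without control library 1 (0.02) and without control library 3 (0.00), within a range of -0.05 to 0.02 when 1 library was left out. Same-numbered libraries correlated at 0.00365 to 0.0716 in their deviations from group means, and differently numbered ones at -0.0718 to 0.00796. With 3 libraries per group this cannot settle whether the numbers pair the libraries. The replicate block kept all 18 calls. It added falls of KIFC1 (adjusted p = 0.0414 by edgeR's quasi-likelihood test), KIF22 (0.0278) and KIF26A (0.0459), so that 13 kinesins fell. In that fit DYNC1I1 was not called (0.0664), and 2564 genes rose and 2608 fell over the whole table. Outside the fits that leave out a library, the axonal transport genes that fell numbered 5 in the wider class, the other kinesins that fell 3 with library totals and 2 with the DESeq2 Wald test, and the adaptors that rose 2 with library totals. Leaving out 1 library at a time gave 1501 to 3204 genes that rose and 1473 to 3294 that fell over the whole table, 5 to 9 kinesins that rose and 4 to 17 that fell, and kinesin medians of -0.11 to -0.03. Mitotic kinesins that fell numbered 3 to 8, axonal transport genes that rose 1 to 5 and fell 1 to 3 with medians of 0.01 to 0.06, and other kinesins that fell 0 to 6. Spindle partners that fell numbered 5 to 13 with medians of -0.21 to -0.11, adaptors that fell 2 to 5 with medians of -0.06 to -0.01, and dynein genes that rose 3 to 8 with medians of 0.03 to 0.08. The difference between the mitotic and axonal transport medians ranged from -0.28 to -0.11. Fits without a library leave 2 against 3, and the cause of each shift was not tested. The low counts of KIF2B and KIF4B left both below the low-count filter.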

Other observations

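PRC1 and NUSAP1, microtubule bundlers that work beside KIF4A and the spindle motors, were listed at levels far below their partners. PRC1 averaged 1.52 ± 0.553 CPM after β-alanine and 2.11 ± 0.0492 CPM in controls, and NUSAP1 1.11 ± 0.258 and 1.02 ± 0.0914 CPM (SD, n = 3 each), while the next lowest spindle partner, FAM83D, averaged 24.3 and 26.5 CPM. Of the 5525 exonic bases of PRC1, 3181 are shared with AC068831.7 on the same strand, and of the 2875 of NUSAP1, 1787 are shared with AC087721.2 on the same strand. The part of this overlap in their low counts was not tested.

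Some neuroendocrine markers moved beside the kinesins. ENO2, DLL3, NEUROD1 and YAP1 of the same list were tested and not called. The granule protein gene CHGA averaged 28.8 CPM after β-alanine and 19.6 CPM in controls, a log2 change of 0.56 ± 0.08 (SE; adjusted p = 2.76e-05 by edgeR's quasi-likelihood test), with all 3 β-alanine libraries above all controls. SYP, of synaptic vesicles, rose by 0.50 ± 0.05 and UCHL1 by 0.44 ± 0.07, while the adhesion gene NCAM1 fell by 0.67 ± 0.20 at 1.48 and 2.32 CPM. Their relation to KIF1A and KIF16B was not tested.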
